A study of Mus musculus with 6 samples.

Results

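Germline stem cells that the study derived from hair follicles (HFGSC, 2 arrays) were compared with hair follicle cells (HF, 2 arrays). The arrays were chosen by their titles and make up 4 of the 6 in the study. For HFGSC the source was dorsal skin of adult mice aged 4 months, and for HF dorsal skin of adult mice aged 2 months. The OG2 strain, used throughout, has a green fluorescent reporter under regulatory sequence of the pluripotency gene Pou5f1. Testis germline stem cells (GSC) of adult mice aged 3 months gave the remaining 2 arrays, which entered the fit to help estimate the spread. The labels name no culture condition, passage, sex or number of animals, and they do not tell whether arrays of a group hold different animals or cultures. The spread behind each p-value is therefore that of these samples alone and may be technical. Age differs with the group, and the 2 cannot be told apart.

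Germline stem cells of the testis are the spermatogonia that renew themselves and feed sperm production. In culture they depend on GDNF, which signals through the receptor tyrosine kinase Ret and a coreceptor, and on FGF, and this signal drives transcription factors that hold the undifferentiated state. Germ cells also use a dedicated machinery of small RNAs, the piRNA pathway, to silence transposons, and they express sets of genes, many of them on the X chromosome or with methylated promoters in body cells, that other tissues keep silent. The hair follicle holds keratinocyte layers and a stem cell niche called the bulge around a mesenchymal core, the dermal papilla.

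Values below are normalized log2 intensities unless a fold or a difference is named. A gene was called higher or lower where limma's adjusted p was under 0.05, and a probe was called detected on an array where its detection p-value was under 0.05. A gene was tested only if both arrays of some group detected it. Genes undetected in HF thus entered through the HFGSC or GSC arrays, and the share of a list that was higher depends on this filter. If neither array of the dimmer group detected a probe, only a lower bound of its fold is given, written as "at least" and set against the dimmest detected signal of each array, or the probe's own where that was brighter. Of 45281 probes the HFGSC arrays detected 19552 and 18907, against 16593 and 16094 for the HF arrays. Intensities are relative to each array's total, so fewer cells of a type and less RNA of a gene per cell cannot be told apart in any result. Precision is limited by the 2 arrays in each group, for which the smallest two-sided p of an exact permutation test is 0.333.

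Marker genes were checked against both labels, and the HFGSC arrays carried germ cell markers while few basal keratinocyte markers were detected in either group. Of 24 genes of the germ cell core list on the array, 22 and 21 were detected on the HFGSC arrays, against 2 and 4 on the HF arrays. Only Mael and Tex15 of that list were detected on none of the 4 arrays. Of 14 basal keratinocyte genes 5 and 5 were detected in HFGSC and 3 and 5 in HF. Krt5, Krt14, Krt15, Trp63, Dsg3, Perp and Krt6a of this list were detected on none of the 4 arrays. Of 18 bulge genes 13 and 12 were detected in HFGSC, against 9 and 9 in HF. The bulge genes Postn, Fgf18 and Gli1, like Krt15, were detected on none. HFGSC arrays detected 16 and 16 of 18 fibroblast markers, against 8 and 9 for HF arrays. Of 17 dermal papilla genes 7 and 8 were detected in HFGSC, against 4 and 4 in HF. Of 13 melanocyte and Schwann cell genes 5 and 4 were detected in HFGSC, against 0 and 0 in HF. Over all genes on the array, HFGSC arrays detected 56.2% and 55.8%, against 47.7% and 47% for HF arrays. Leukocyte genes were nearly all absent, with 1 and 2 of 13 detected in HFGSC and 1 and 1 in HF. A probe for Eif2s3y, a gene of the Y chromosome, read 10.77 and 7.80 in HFGSC, against 4.92 and 4.92 in HF, and its part in other differences was not tested.

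The HFGSC arrays were apart from the HF arrays by far more than from each other. The root mean square difference between an HFGSC and an HF array was 1.69 to 1.97 log2 units, against 0.986 between the HFGSC arrays and 0.737 between the HF arrays. HFGSC array 1 lay closer to the first GSC array, at 0.635, than to HFGSC array 2. Of the 10913 genes tested, 2896 passed (26.5%), 1873 of them higher (17.2%) and 1023 lower (9.37%) in HFGSC, and 4256 had an unadjusted p under 0.05. Every one of the 2896 had both arrays of each group on its own side. With 2 arrays in each group this largely follows from the call and is no separate support. The counts moved with the arrays used: 1455 genes were higher and 517 lower without HFGSC array 1, 1676 and 1153 without HFGSC array 2, 993 and 512 without HF array 1, and 1086 and 439 without HF array 2. Large differences leaned to the higher side, with 1219 genes higher and 564 lower by at least 2 log2 units. All calls leaned the same way, with 64.7% higher. Genes undetected in HF could enter the test through HFGSC or GSC arrays, and the part of this filter in the lean was not tested. The median difference over all tested genes was 0.046.

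**Figure D1:**
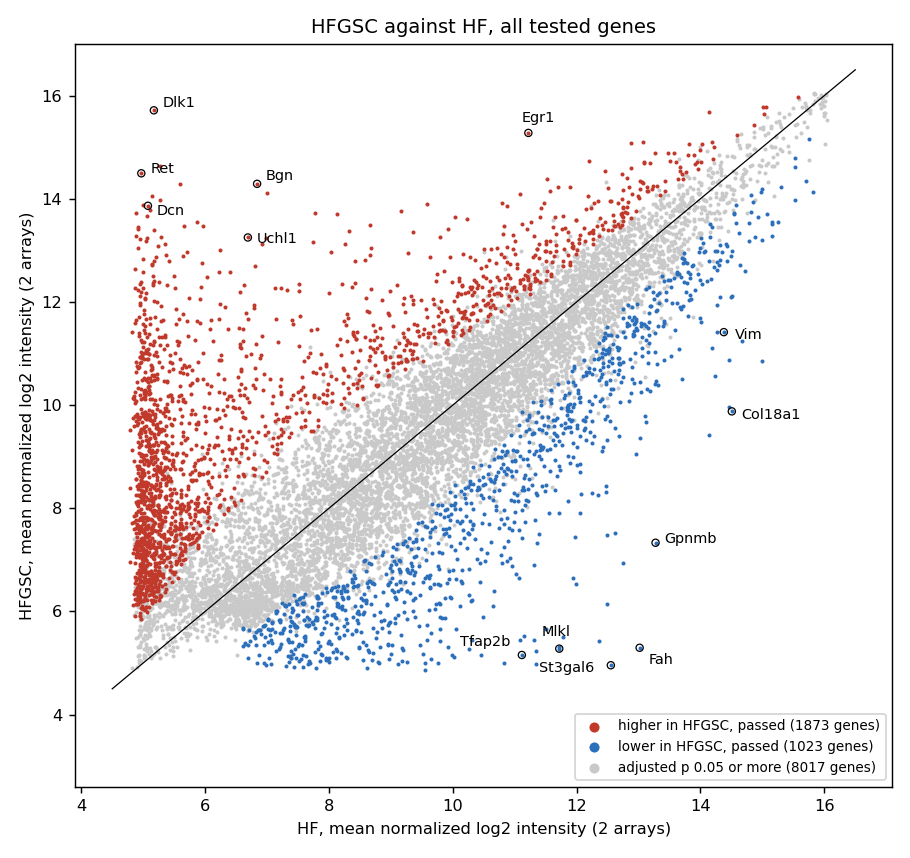
Mean normalized log2 intensity of each of the 10913 tested genes in HFGSC (vertical axis) and HF (horizontal axis), 2 arrays each, with the line of equal values. The 1873 genes that were higher in HFGSC include a dense column at the left edge, where HF signal is at background, and the 1023 lower genes include a thinner row along the bottom.

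Much of the difference lay in genes seen on one side alone. There were 1549 genes (14.2%) whose probe was detected on both HFGSC arrays and on neither HF array, and 1169 of these passed as higher. The reverse, detected on both HF arrays and on neither HFGSC array, held for 202 genes (1.85%), of which 181 passed as lower. Counting a gene as detected where any of its probes was gave 1483 and 192. The dimmest detected signal was 6.39 and 6.5 on the HF arrays, against 5.88 and 5.97 on the HFGSC arrays. A probe of equal signal between those levels could therefore count as detected in HFGSC alone. This favours the HFGSC counts here and the HFGSC detection shares above, to an extent that was not tested. Col17a1, Esrrb, Igf2bp3, Lgals7 and Pdgfra, described below, each had another probe that was detected in HF, so the values given are those of their brightest probe. Bak1, Ccl5, Dlx3, Egr3, Eng, Gata3, Htra1, Id2, Kitl, Mbd2, Myc, Pdgfb, Ppargc1b, Runx1 and Timp3 were detected on only 1 of the 2 arrays of their dimmer group, and any fold given for them is set partly against a signal at background. Another 7840 genes were detected on all 4 arrays, with 587 higher and 714 lower in HFGSC. Quantile normalization gave all arrays the same distribution of values. In this class the median difference over autosomes other than chromosome 5 was -0.2. Under median scaling 1848 genes were higher and 856 lower over all tested genes. The part of the normalization in the excess of lower genes was not tested.

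Dlk1, an imprinted membrane protein related to Notch ligands, read 15.54 and 15.89 in HFGSC, against 5.07 and 5.28 in HF, which is at least 616-fold higher (adjusted p = 1.57e-05). Large2, a glycosyltransferase that extends sugar chains on dystroglycan, read 14.99 and 14.28 in HFGSC, against 5.21 and 5.32 in HF, at least 292-fold higher. Of germ cell genes at this end, Tex19.1, a suppressor of transposons, read 14.53 and 14.03 in HFGSC, against 5.40 and 5.80 in HF, at least 228-fold higher, and Gpat2, an acyltransferase relative needed for piRNA production, read 14.37 and 13.75 in HFGSC, against 5.18 and 5.09 in HF, at least 196-fold higher. Mageb4, an X-linked cancer-testis gene, was at least 172-fold higher, Dazl, an RNA-binding protein of germ cells, at least 148-fold higher, and Sohlh1, a transcription factor of spermatogonial differentiation, at least 138-fold higher. The same group of genes also held products of mesenchymal cells. Decorin (Dcn), a proteoglycan of connective tissue, read 13.71 and 14.02 in HFGSC, against 5.22 and 4.93 in HF, and Col6a1, a chain of collagen VI, read 13.05 and 14.52 in HFGSC, against 5.19 and 5.04 in HF. These genes were chosen for detection on both HFGSC arrays and on neither HF array, so that shared pattern is no separate result.

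At the other end stood enzymes and signalling genes that were at background in HFGSC. Fah, the last enzyme of tyrosine breakdown, read 4.97 and 5.62 in HFGSC, against 12.88 and 13.15 in HF, at least 136-fold lower (adjusted p = 0.000233). St3gal6, which adds sialic acid to sugar chains, was at least 98.8-fold lower, and Tinagl1, a secreted matrix protein, at least 86.5-fold lower. Mlkl, the membrane effector of necroptosis, read 5.48 and 5.07 in HFGSC, against 11.82 and 11.62 in HF, and Il24, a cytokine of the IL-10 family, read 5.15 and 5.49 in HFGSC, against 11.42 and 12.01 in HF. Adh7, an alcohol dehydrogenase that also oxidises retinol, read 4.92 and 5.04 in HFGSC, against 10.60 and 12.09 in HF, at least 42.8-fold lower. Scx, a transcription factor of tendon cells, and Tfap2b, a factor of neural crest and face development, were at least 37.5-fold and at least 36.5-fold lower.

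**Figure D2:**
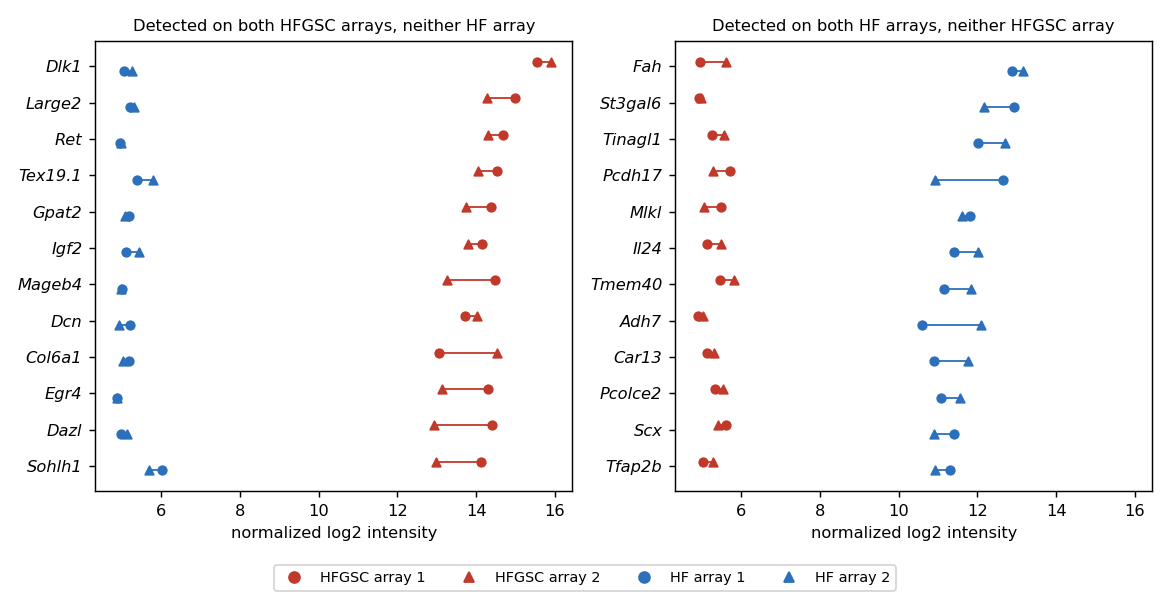
Normalized log2 intensity on each array for the 12 genes with the largest lower bounds in each direction, HFGSC arrays in red and HF arrays in blue. On the left every HFGSC value lies between 12.92 and 15.89 and every HF value between 4.88 and 6.02, and on the right the order is the other way round.

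For genes detected on all 4 arrays the folds are not bounds, but some are set against values near the dimmest detected signal. On HF array 1 that signal was 6.39, and Uchl1 read 6.42 and Gas6 6.445. On HFGSC array 1 it was 5.88, and Itgb7 read 6.01. Biglycan (Bgn), a proteoglycan related to decorin, read 13.33 and 15.24 in HFGSC, against 6.93 and 6.75 in HF, 175-fold higher (adjusted p = 0.000292). Uchl1, a deubiquitinase used as a spermatogonial marker, read 13.51 and 12.99 in HFGSC, against 6.42 and 6.96 in HF, 94.3-fold higher. Gas6, the ligand of the TAM receptors, was 73.2-fold higher, Mcam, a cell adhesion molecule of the immunoglobulin family, 61.5-fold, and Sphk1, which makes sphingosine 1-phosphate, 47.5-fold higher. Dppa5a, an RNA-binding protein of pluripotent and germ cells, read 12 and 11.35 in HFGSC, against 6.59 and 6.81 in HF. Among the lower genes Gpnmb, a glycoprotein of melanosomes and lysosomes, read 7.01 and 7.65 in HFGSC, against 13.24 and 13.31 in HF, 61.5-fold lower (adjusted p = 0.000346). Slco4a1, an organic anion transporter, was 56-fold lower, and Itgb7, an integrin chain, 39.6-fold. Col18a1, the basement membrane collagen that contains endostatin, read 9.94 and 9.82 in HFGSC, against 14.48 and 14.54 in HF, and the arrays within each group were close. Ago2, the slicer protein of the microRNA pathway, read 9.29 and 10.62 in HFGSC, against 14.57 and 14.37 in HF, 22.8-fold lower.

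Promoters of the genes seen on one side alone are shown because base composition and motifs were compared between the directions. The windows are from RefSeq on build GRCm38.p6 and run from 250 bases before to 50 after the first listed start, and 8838 of the 10913 tested genes had one. The 250 bases before the start are printed 5′ to 3′ on the strand of the gene, in lower case, with capitals for the palindromic motif of the factor NRF1 (the capitals in Gpat2 and the first capitals in Tex19.1), CACGTG (the E-box) and TGANTCA (the AP-1 motif). The first 3 were higher in HFGSC and the last 3 lower, and Tex19.1 also holds TGANTCA, with 2 matches.
Gpat2, chr2:127424949-127425198, plus strand: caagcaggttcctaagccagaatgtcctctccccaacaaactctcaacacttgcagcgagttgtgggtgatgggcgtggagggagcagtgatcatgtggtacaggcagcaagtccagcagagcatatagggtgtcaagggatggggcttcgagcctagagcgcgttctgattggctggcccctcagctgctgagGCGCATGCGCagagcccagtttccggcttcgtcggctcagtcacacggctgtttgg
Tex19.1, chr11:121145893-121146142, plus strand: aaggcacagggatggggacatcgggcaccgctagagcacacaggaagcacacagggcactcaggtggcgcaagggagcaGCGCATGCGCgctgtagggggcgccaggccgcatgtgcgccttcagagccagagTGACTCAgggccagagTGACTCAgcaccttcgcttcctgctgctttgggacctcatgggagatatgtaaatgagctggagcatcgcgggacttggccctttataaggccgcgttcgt
Sohlh1, chr2:25847249-25847498, minus strand: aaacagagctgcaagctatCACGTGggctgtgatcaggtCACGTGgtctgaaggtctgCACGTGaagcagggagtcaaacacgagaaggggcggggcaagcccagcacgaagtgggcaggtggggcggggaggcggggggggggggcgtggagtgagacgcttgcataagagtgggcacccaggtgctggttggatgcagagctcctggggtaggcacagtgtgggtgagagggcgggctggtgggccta
Serpinb2, chr1:107511173-107511422, plus strand: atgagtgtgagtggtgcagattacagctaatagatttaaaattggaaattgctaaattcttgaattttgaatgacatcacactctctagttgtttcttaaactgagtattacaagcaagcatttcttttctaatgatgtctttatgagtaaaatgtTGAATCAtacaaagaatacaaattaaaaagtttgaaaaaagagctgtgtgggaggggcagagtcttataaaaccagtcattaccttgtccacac
Adh7, chr3:138217523-138217772, plus strand: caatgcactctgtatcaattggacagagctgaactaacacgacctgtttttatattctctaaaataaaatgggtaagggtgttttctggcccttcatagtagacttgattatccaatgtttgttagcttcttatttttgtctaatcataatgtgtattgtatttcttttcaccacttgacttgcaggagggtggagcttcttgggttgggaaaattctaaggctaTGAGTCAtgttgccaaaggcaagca
Tinagl1, chr4:130175123-130175372, minus strand: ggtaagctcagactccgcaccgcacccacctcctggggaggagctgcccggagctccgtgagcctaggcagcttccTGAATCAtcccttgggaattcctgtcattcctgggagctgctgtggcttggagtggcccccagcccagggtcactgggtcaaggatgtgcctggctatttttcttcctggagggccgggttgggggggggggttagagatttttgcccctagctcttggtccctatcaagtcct

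A search of the 300-base windows on both strands gave the background for these motifs. TGANTCA was held by 4.37% of the 893 promoters of genes that were higher and detected on HFGSC arrays alone, by 18.1% of the 138 promoters of genes that were lower and detected on HF arrays alone, and by 5.08% of the promoters of all tested genes. TATAAA was held by 8.29%, 17.4% and 7.56% of these sets in the same order. Both sets were poorer in CpG than the rest: the median ratio of observed to expected CpG was 0.572 and 0.487, against 0.759 over all tested genes. Among promoters with a ratio of 0.6 or less, TGANTCA was held by 5.15% of 466 higher promoters, by 28.9% of 83 lower promoters and by 9.32% of all 2564. Over every promoter in the table, tested or not, 7.93% held it. The 25 genes of the lower set with TGANTCA include Serpinb2, an inhibitor of plasminogen activators that read 5.06 and 4.93 in HFGSC, against 10.93 and 10.71 in HF, and the collagenase Mmp13, at 5 and 5.49 in HFGSC, against 8.06 and 9.20 in HF. CACGTG was held by 9.18% of the higher set, 5.07% of the lower set and 10.6% of all, and the NRF1 motif by 0.672%, 0% and 1.98%, so the matches in the printed germ cell promoters are single cases. A match is a description of letters and not of binding, the motifs overlap in no printed promoter, and 8 motifs were searched.

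The AP-1 subunits themselves were read alongside, chosen after their values were seen. Fos, a partner in AP-1, read 12.28 and 13.98 in HFGSC, against 8.68 and 7.83 in HF, 29.4-fold higher (adjusted p = 0.00175), while Jun read 9.14 and 11.88 in HFGSC, against 9.95 and 10.69 in HF and Junb 11.19 and 13.53 in HFGSC, against 12.23 and 12.37 in HF without passing. In all 3 the higher HFGSC value was on array 2. Myc, another immediate early gene and a driver of growth, read 5.14 and 6.88 in HFGSC, against 8.17 and 8.76 in HF, 5.5-fold lower (adjusted p = 0.0192). The Egr zinc finger factors were higher on both HFGSC arrays. Egr1 read 15.23 and 15.32 in HFGSC, against 11.32 and 11.12 in HF, 16.6-fold higher, Egr2 13 and 13.03 in HFGSC, against 6.16 and 6.32 in HF, and Egr3 12.77 and 12.38 in HFGSC, against 6.62 and 5.81 in HF. Egr4, linked to spermatogenesis in mice, read 14.30 and 13.14 in HFGSC, against 4.88 and 4.88 in HF. Of 24 tested immediate early genes 9 were higher and 2 lower, with a median difference of 0.57, and 0 or 2 were lower without HFGSC array 1 or 2 and 1 or 0 without HF array 1 or 2. Myc did not pass without HFGSC array 1 or HF array 2 (adjusted p = 0.0732 to 0.0759).

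Among receptors and relays of GDNF and FGF, Ret had the largest difference. Ret read 14.69 and 14.30 in HFGSC, against 4.96 and 4.98 in HF, at least 264-fold higher, a difference of 9.52 ± 0.35 (SE) log2 units (adjusted p = 4.08e-05). Its coreceptor Gfra1, named after its values were seen, was far dimmer at 7.79 and 7.74 in HFGSC, against 6.01 and 5.62 in HF, at least 2.49-fold higher (adjusted p = 0.00991). Fgfr2 read 8.30 and 8.49 in HFGSC, against 5.13 and 5.20 in HF, and its ligand Fgf7 8.99 and 10.88 in HFGSC, against 5.43 and 5.29 in HF. Of the MAP kinase phosphatases that FGF and GDNF signals induce, Dusp6 was 2.43-fold higher, at 14.28 and 14.39 in HFGSC, against 12.95 and 13.15 in HF, and Dusp4 was 4.43-fold lower, at 9.81 and 9.65 in HFGSC, against 11.65 and 12.11 in HF. In the list 12 of 21 tested members were higher and 1 lower, with a median of 1.64, and 9 or 7 were higher without HFGSC array 1 or 2 and 4 or 5 without HF array 1 or 2. Gdnf itself read 7.66 and 11.25 in HFGSC, against 4.95 and 4.99 in HF. Its HFGSC arrays lay far apart, and the gene passed, at least 8.03-fold higher (adjusted p = 0.0188). Dusp6 did not pass under median scaling (adjusted p = 0.153). Dusp4 did not pass without HF array 2 (adjusted p = 0.176). Gdnf and Gfra1 did not pass without HF array 1 or HF array 2 (adjusted p = 0.0516 to 0.103).

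Genes listed as targets of GDNF in spermatogonial cultures were higher in 18 of 19 tested cases by limma, at a median of 4.67. Of them 0 were lower (0 at an unadjusted p under 0.05). This list and the others were chosen with earlier results of these data known, so their counts are no independent support. The list had 20 genes on the array. Of the 19, 14 were detected on both HFGSC arrays and neither HF array, so the filter favours higher members. Bcl6b, a repressor needed for spermatogonial stem cell upkeep, read 12.09 and 12.73 in HFGSC, against 5.09 and 5.25 in HF, at least 62.4-fold higher. Sall4, a zinc finger factor of germ and embryonic stem cells, read 13.67 and 12.83 in HFGSC, against 5.67 and 4.92 in HF, at least 112-fold higher. Without HF array 1 the count was 14, and in the other 3 fits that left out an array it was 16 to 18.

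Genes of spermatogonial differentiation and retinoid response were higher in 10 of 18 cases and lower in 0 (0 at an unadjusted p under 0.05). Kit, the receptor that marks differentiating spermatogonia, read 9.96 and 9 in HFGSC, against 5.24 and 5.02 in HF, at least 8.19-fold higher. Neurog3, a factor of early progenitors, read 11.02 and 9.51 in HFGSC, against 4.99 and 5.09 in HF, and Crabp1, a retinoic acid binding protein that is also a dermal papilla marker, read 10.26 and 9.98 in HFGSC, against 4.80 and 4.90 in HF. The retinol dehydrogenase Adh7, named above, was at background in HFGSC. HF array 1 carried weight here: 6 genes passed without it.

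The piRNA list had 19 of 24 tested members higher and 0 lower (0 at an unadjusted p under 0.05), at a median of 4.08. It had 28 genes on the array, of which 4 were not tested. Of the 24, 19 were detected on both HFGSC arrays and neither HF array, so the filter favours higher members. Piwil2, a Piwi protein that binds piRNAs, read 13.68 and 12.49 in HFGSC, against 5.28 and 5.20 in HF, at least 99.7-fold higher, and Tex19.2, a paralog of Tex19.1, read 13.58 and 12.91 in HFGSC, against 5.04 and 5.09 in HF. In every fit that left out an array between 16 and 21 members were higher. On HFGSC array 1 the values exceeded those of array 2 in 23 of 24 members.

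Of 26 tested cancer-testis and X-linked reproductive genes 17 were higher and 1 was lower, at a median of 4.66. The list had 36 genes on the array, and the 10 untested ones were detected on none of the 4 arrays. Of the 26, 22 were detected on both HFGSC arrays and neither HF array. These 22 entered the test through HFGSC or GSC arrays alone, which favours higher members. Xlr4a, of an X-linked lymphocyte-regulated family, read 14.24 and 12.57 in HFGSC, against 4.93 and 4.89 in HF, and Rhox13, a reproductive homeobox gene, 11.93 and 11.45 in HFGSC, against 5.08 and 5.14 in HF. The exception was Rhox5, the founding gene of the same homeobox cluster, which read 8.43 and 9.48 in HFGSC, against 11.28 and 11.13 in HF, 4.76-fold lower (adjusted p = 0.0147). Rhox5 did not pass without HFGSC array 1, HF array 1 or HF array 2 (adjusted p = 0.0545 to 0.094). Genes whose promoters are methylated in body cells were higher in 11 of 15, among them Taf7l, a TFIID subunit relative of germ cells on the X chromosome, at 14.23 and 12.35 in HFGSC, against 4.91 and 4.88 in HF, and Tuba3a, a testis tubulin, at 13.30 and 13.70 in HFGSC, against 8.91 and 8.44 in HF. On the X chromosome as a whole 22.6% of tested genes were detected on HFGSC arrays alone, against 13.9% on the autosomes. Of all tested X genes 23.1% were higher and 12.6% lower, against 17% and 9.29% on the autosomes. The 217 X genes detected on all 4 arrays went the other way, with 16 higher and 33 lower. Their median difference was -0.5, against -0.17 over autosomal genes.

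Meiosis genes were higher in 9 of 15 cases and lower in 0 (0 at an unadjusted p under 0.05). Syce3, a protein of the synaptonemal complex, read 12.70 and 12.44 in HFGSC, against 4.97 and 5.01 in HF, at least 69.8-fold higher. The meiotic cohesin subunits Rec8 and Stag3 read 9.59 and 9.60 in HFGSC, against 5.01 and 5.08 in HF, and 12.98 and 11.74 in HFGSC, against 8.6 and 8.24 in HF. Counts without an array were 6 or 8 for HFGSC array 1 or 2 and 5 for either HF array. Of 18 spermatid and sperm genes on the array 8 and 8 were detected in HFGSC, against 3 and 3 in HF. Among the 8 tested, 5 were higher and 1, the transcription factor Crem, was lower, while 4 were higher without either HFGSC array and 4 or 3 without HF array 1 or 2, and 1 or 0 were lower without HFGSC array 1 or 2 and 0 without either HF array. Crem did not pass without HFGSC array 2, HF array 1 or HF array 2 or without the detection filter (adjusted p = 0.0523 to 0.0853). Zpbp, an acrosome protein, read 8.75 and 8.53 in HFGSC, against 5.16 and 5.16 in HF, and Ldhc, the lactate dehydrogenase of sperm, read 8.81 and 7.68 in HFGSC, against 4.99 and 4.89 in HF, while Prm1, Tnp2, Acrv1, Acr, Akap4, Pgk2, Gapdhs, Tssk1, Tssk6 and Smcp were detected on none of the 4 arrays.

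Regulators of pluripotency were higher in 13 of 20 tested cases and lower in 1, at a median of 3.16. Dppa4, a chromatin protein of pluripotent cells, read 13.24 and 12.02 in HFGSC, against 4.91 and 4.84 in HF, Tcl1, a coactivator of Akt, 12.86 and 12.14 in HFGSC, against 5.30 and 5.03 in HF, and Esrrb, an orphan nuclear receptor of naive stem cells, 10.91 and 10.97 in HFGSC, against 4.98 and 4.90 in HF. Klf5, a factor shared by epithelia and embryonic stem cells, was 4.5-fold lower, at 9.11 and 10.18 in HFGSC, against 11.56 and 12.07 in HF. Klf5 did not pass without HFGSC array 1, HF array 1 or HF array 2 (adjusted p = 0.0714 to 0.143). Pou5f1, whose regulatory sequence drives the reporter of the strain, read 8.44 and 8.13 in HFGSC, against 6.61 and 6.81 in HF, a difference of 1.58 ± 0.51 that did not pass (adjusted p = 0.0567). It was named after its values were seen.

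Imprinted genes were higher in 7 of 20 cases and lower in 2, the second share being near the background. Beside Dlk1, Igf2, a fetal growth factor, read 14.16 and 13.78 in HFGSC, against 5.10 and 5.44 in HF, at least 184-fold higher, and Cdkn1c, an inhibitor of cyclin-dependent kinases, read 13.76 and 13.14 in HFGSC, against 4.92 and 4.93 in HF, at least 128-fold higher. Peg10, a gene derived from a retrotransposon, read 5.15 and 5.12 in HFGSC, against 8.04 and 6.69 in HF, at least 2.71-fold lower. In each fit that left out an array 7 imprinted genes were higher, and 1 or 2 were lower without HFGSC array 1 or 2 and 2 or 1 without HF array 1 or 2. Peg10 did not pass without HFGSC array 1 (adjusted p = 0.0564). Enzymes of DNA methylation were higher in 5 of 15 cases (3 in each fit that left out an array), with Mbd2, a reader of methylated DNA, at 12.37 and 12.01 in HFGSC, against 5.81 and 7.31 in HF, Dnmt3b, a de novo methyltransferase, at 12.53 and 11.88 in HFGSC, against 8.61 and 9.35 in HF, and its cofactor Dnmt3l at 8.38 and 8.56 in HFGSC, against 5.07 and 5.01 in HF. Polycomb and other histone modifier genes were higher in 6 of 41, a share near the background, but 4 or 10 were higher without HFGSC array 1 or 2 and 1 or 3 without HF array 1 or 2. They were led by Kdm2b, a histone demethylase that recruits Polycomb, at 12.99 and 12.76 in HFGSC, against 9.85 and 10.07 in HF.

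Epidermal and follicle regulators were divided between the directions, with 10 higher and 9 lower of 27. Dlx3, a homeobox factor of hair differentiation, read 10.86 and 10.55 in HFGSC, against 6.32 and 6.84 in HF, 17.5-fold higher, and Grhl2, a grainyhead factor of epithelia, 10.17 and 9.44 in HFGSC, against 4.83 and 5.38 in HF. Lhx2, a bulge factor, read 6.65 and 7.23 in HFGSC, against 4.79 and 4.94 in HF, and Klf4, a barrier factor and reprogramming factor, 10.40 and 11.45 in HFGSC, against 6.95 and 8.37 in HF. Lower were Gata6, at 5.30 and 5.61 in HFGSC, against 11 and 11.17 in HF, Gata3, a factor of the inner root sheath, at 5.17 and 6.69 in HFGSC, against 8.87 and 9.36 in HF, and Runx1, at 5.44 and 6.46 in HFGSC, against 8.84 and 8.25 in HF. Of these, 7 or 8 were higher without HFGSC array 1 or 2 and 4 without either HF array, and 6 or 10 were lower without HFGSC array 1 or 2 and 5 without either HF array.

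Of the keratin and cornified envelope list only 12 genes were tested, with 0 higher (2 at an unadjusted p under 0.05) and 2 lower. Sprr1a, a cornified envelope protein, read 6.15 and 6.09 in HFGSC, against 8.02 and 7.61 in HF, and Krt80 5.23 and 5.6 in HFGSC, against 6.88 and 7.93 in HF, both lower. Proteins that anchor basal keratinocytes were nonetheless higher in HFGSC: Col17a1, a hemidesmosome collagen, read 10.52 and 9.82 in HFGSC, against 5.27 and 5.52 in HF, Itgb4, the hemidesmosome integrin, 9.49 and 9.91 in HFGSC, against 5.97 and 6.04 in HF, and Cdh3, P-cadherin, 10.06 and 9.70 in HFGSC, against 4.99 and 5.54 in HF. Lamb3, a laminin chain of the same anchoring structure, was the reverse at 5.12 and 5.04 in HFGSC, against 8.03 and 9.91 in HF. Dst, the hemidesmosome linker, passed as lower, but its probes passed in opposite directions. In the keratin list 1 or 2 were lower without HFGSC array 1 or 2 and 2 without either HF array. Krt80 did not pass without HFGSC array 1 (adjusted p = 0.0602). Dst did not pass without HFGSC array 1, HF array 1 or HF array 2 or with the mean of all probes (adjusted p = 0.0509 to 0.0985).

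Of 24 desmosome, tight and adherens junction genes 6 were higher and 4 lower, and 2 or 3 were lower without HFGSC array 1 or 2 and 2 without either HF array. They included Cldn6, a claudin of embryonic epithelia, at 8.53 and 8.31 in HFGSC, against 5.38 and 4.97 in HF, and Ocln, occludin, at 8.45 and 7.72 in HFGSC, against 5.09 and 4.94 in HF, both higher, and the desmosomal plakophilins Pkp2 and Pkp3, both lower, with Pkp2 at 8.61 and 8.86 in HFGSC, against 11.66 and 11.82 in HF. Pkp3 did not pass without HFGSC array 1, HF array 1 or HF array 2, under median scaling, without the detection filter, without the trend or in a fit of the 4 arrays alone (adjusted p = 0.0505 to 0.216). Gap junction genes were higher in 4 of 8 and lower in 1, and 2 or 3 were higher without HFGSC array 1 or 2 and 2 without either HF array. Gjb2, connexin 26, read 11.70 and 10.28 in HFGSC, against 5.09 and 5.11 in HF, at least 23.3-fold higher, and Gja4, connexin 37, 9.11 and 9.84 in HFGSC, against 5.31 and 4.92 in HF, while Gja1, connexin 43 and the main connexin of skin fibroblasts and follicles, read 9.56 and 11.55 in HFGSC, against 14.36 and 14.11 in HF, 12.8-fold lower.

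**Figure D3:**
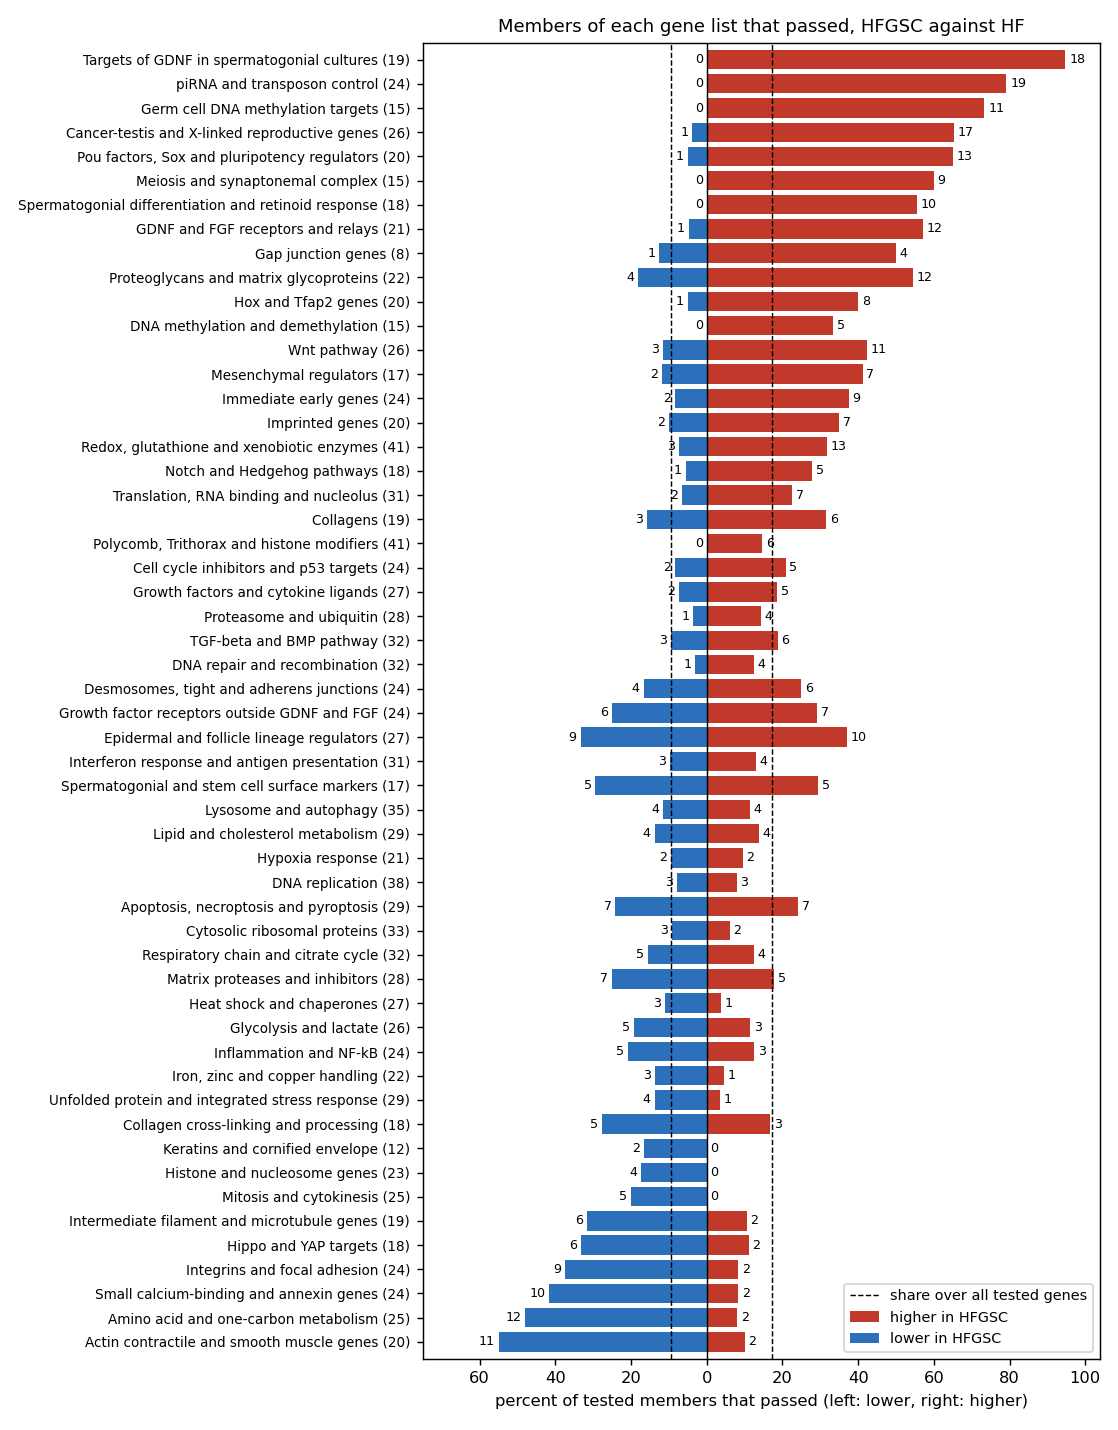
Share of the tested members of each gene list (number tested in brackets) that passed as higher, to the right, or lower, to the left, in HFGSC against HF, with the counts at the bar ends. The dashed lines mark the 17.2% and 9.37% of all tested genes, and germ cell lists fill the top while actin, amino acid, S100 and integrin lists fill the bottom.

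Mesenchymal regulators were higher in 7 and lower in 2 of 17 cases, and 1 or 3 were lower without HFGSC array 1 or 2 and 1 without either HF array. Osr2, a zinc finger factor of mesenchyme, read 11.67 and 13.11 in HFGSC, against 4.93 and 5.01 in HF, at least 61.5-fold higher, and Barx1 and Foxf1, factors of gut and other mesenchyme, 10.44 and 10.28 in HFGSC, against 4.99 and 5.20 in HF, and 9.15 and 8.97 in HFGSC, against 5.40 and 5.87 in HF. En1, a marker of a dermal fibroblast lineage, was high in both at 13.57 and 13.36 in HFGSC, against 10.88 and 10.78 in HF. Lower were Zeb2 and Snai2, repressors of the epithelial programme, at 6.11 and 6.41 in HFGSC, against 10.71 and 9.04 in HF, and 6.05 and 8.09 in HFGSC, against 9.33 and 9.48 in HF. In the fibroblast list 8 of 16 were higher and 1, vimentin (Vim), was lower, at 10.29 and 12.54 in HFGSC, against 14.36 and 14.39 in HF. Thy1, a surface marker of both fibroblasts and spermatogonia, read 11.94 and 13.53 in HFGSC, against 5 and 5.27 in HF, at least 78-fold higher, and Dpt, a dermal matrix protein, 9.99 and 10.27 in HFGSC, against 4.82 and 4.84 in HF. The fibroblast list averaged 9.52 on HFGSC array 1 and 11.04 on array 2, against 8.03 and 7.89 on the HF arrays, and was higher on HFGSC array 1 in 1 of 16 genes. Of fibroblast markers 1 or 3 were lower without HFGSC array 1 or 2 and 0 without either HF array. Snai2 did not pass without HFGSC array 1, HF array 1 or HF array 2, under median scaling, without the detection filter or in a fit of the 4 arrays alone (adjusted p = 0.0678 to 0.175). Vim did not pass without HF array 1 or HF array 2 (adjusted p = 0.0533 to 0.0569).

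Matrix genes moved both ways. Proteoglycans and glycoproteins were higher in 12 and lower in 4 of 22, at a median of 1.78, while 11 or 9 were higher without HFGSC array 1 or 2 and 8 without either HF array, and 3 or 6 were lower without HFGSC array 1 or 2 and 2 without either HF array. Nid2, a basement membrane linker, read 12.86 and 13.07 in HFGSC, against 5.74 and 5.66 in HF, at least 91.7-fold higher, and Fbln1, fibulin 1, 12.50 and 12.19 in HFGSC, against 7.24 and 7.79 in HF. The laminin chains Lamc1 and Lama5 were lower, at 10.80 and 11 in HFGSC, against 13.03 and 12.68 in HF, and 9.43 and 9.61 in HFGSC, against 11.77 and 12.47 in HF. Collagens were higher in 6 and lower in 3 of 19: Col6a2 and Col4a5 read 9.70 and 11.65 in HFGSC, against 5.16 and 5.08 in HF, and 8.81 and 10.65 in HFGSC, against 5.21 and 4.90 in HF, while Col4a1, the main basement membrane chain, read 11.21 and 12.96 in HFGSC, against 14.22 and 14.42 in HF. For collagens 3 or 5 were lower without HFGSC array 1 or 2 and 2 without either HF array. Lox, which cross-links collagen, read 10.78 and 11.97 in HFGSC, against 5.12 and 5.07 in HF, at least 30.4-fold higher, and its relative Loxl4 6.14 and 7.62 in HFGSC, against 10.38 and 11.54 in HF, 16.9-fold lower. Pcolce2, an enhancer of procollagen processing, was at least 41.9-fold lower. Lamc1 did not pass without HF array 1 (adjusted p = 0.0576). Lama5 did not pass without HF array 2 (adjusted p = 0.0896). Col4a1 did not pass without HF array 1 or HF array 2 (adjusted p = 0.0567 to 0.0777).

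Of 28 proteases and their inhibitors 5 were higher, near the background share of 17.2%, and 7 lower. Timp3, a matrix-bound metalloproteinase inhibitor, read 11.52 and 12.41 in HFGSC, against 5.58 and 6.91 in HF, 52.6-fold higher. Htra1, a secreted serine protease, read 5.55 and 6.72 in HFGSC, against 12.31 and 12.68 in HF, 82.1-fold lower, and Plaur, the urokinase receptor, 7.25 and 8.56 in HFGSC, against 11.62 and 12.48 in HF, 17.7-fold lower. Here 6 or 2 were higher without HFGSC array 1 or 2 and 1 or 2 without HF array 1 or 2.

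Lists of integrins, actin and intermediate filaments had more lower than higher members. Of 20 genes of contractile actin 11 were lower and 2 higher, at a median of -1.48, though 4 or 11 were lower without HFGSC array 1 or 2 and 5 without either HF array, and 1 or 2 were higher without HFGSC array 1 or 2 and 1 without either HF array. Tropomyosins Tpm1 and Tpm4 read 11.47 and 12.76 in HFGSC, against 14.61 and 14.42 in HF, and 11.10 and 11.75 in HFGSC, against 14.57 and 13.97 in HF, and Pdlim1, an actin-linked adapter, 8.64 and 10.20 in HFGSC, against 14.19 and 14.09 in HF. Acta2, smooth muscle actin, stood against the list at 11.36 and 13 in HFGSC, against 7.30 and 8.69 in HF, 18.2-fold higher. Integrins and focal adhesion genes were lower in 9 and higher in 2 of 24, and 3 or 9 were lower without HFGSC array 1 or 2 and 2 without either HF array, while 2 were higher without either HFGSC array and 1 without either HF array. Itga3, the laminin-binding chain, read 10.07 and 10.75 in HFGSC, against 13.25 and 13.29 in HF, and Itgb1, the common beta chain, 6.37 and 7.49 in HFGSC, against 9.42 and 9.21 in HF. Lamin A (Lmna) read 12.89 and 13.67 in HFGSC, against 15.09 and 15.22 in HF, and nestin (Nes) 7.28 and 6 in HFGSC, against 9.84 and 9.40 in HF, both lower. Itgb1 did not pass without HFGSC array 1, HF array 1 or HF array 2 (adjusted p = 0.0723 to 0.0882). Nes did not pass without HF array 1 or HF array 2 (adjusted p = 0.0528 to 0.0772).

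S100 and annexin genes were lower in 10 of 24 and higher in 2, at a median of -1.35, and 9 or 14 were lower without HFGSC array 1 or 2 and 5 or 6 without HF array 1 or 2. S100a1, S100a3 and S100a13, small calcium-binding proteins, read 5.05 and 5.27 in HFGSC, against 9.53 and 10.45 in HF, then 5.50 and 5.67 in HFGSC, against 9.77 and 9.54 in HF, then 7.47 and 8.47 in HFGSC, against 11.13 and 11.11 in HF. Anxa2, a membrane-binding annexin, was bright in both and read 13.88 and 14.82 in HFGSC, against 15.68 and 15.71 in HF. Lgals7, a galectin of stratified epithelia placed in the same list, was higher at 9.73 and 9.04 in HFGSC, against 6.03 and 6.34 in HF. S100a13 did not pass without HF array 1 or HF array 2 (adjusted p = 0.0514 to 0.0534). Anxa2 did not pass without HF array 2 or without the trend (adjusted p = 0.0576 to 0.0586).

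The list of Hippo pathway genes and targets of its coactivator YAP, which responds to tension and cell density, had 6 lower and 2 higher of 18, at a median of -1.44, and 3 or 7 were lower without HFGSC array 1 or 2 and 3 without either HF array. Ankrd1, a standard YAP target, read 6.42 and 8.46 in HFGSC, against 11.88 and 12.07 in HF, 23.2-fold lower. The DNA-binding partners of YAP changed against each other: Tead2 read 12.89 and 12.72 in HFGSC, against 8.30 and 8.85 in HF, 18.8-fold higher, and Tead4 6.22 and 7.37 in HFGSC, against 9.79 and 10.51 in HF, 10.2-fold lower. The target Ccn1, named after its values were seen, read 6.09 and 10.72 in HFGSC, against 11.10 and 12.10 in HF and did not pass.

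Growth factors and cytokines had 5 higher and 2 lower of 27, and receptors outside the GDNF and FGF families 7 higher and 6 lower of 24. Of the ligands 2 or 9 were lower without HFGSC array 1 or 2 and 3 or 2 without HF array 1 or 2, and of the receptors 4 or 5 were lower without HFGSC array 1 or 2 and 2 without either HF array. Cxcl1, a neutrophil chemokine, read 11.88 and 14.92 in HFGSC, against 4.99 and 5.37 in HF, at least 124-fold higher, with the HFGSC arrays far apart. Pdgfb, a mitogen of mesenchymal cells, read 12.62 and 12.77 in HFGSC, against 5.47 and 8.13 in HF, with the HF arrays far apart, and its receptor family member Pdgfra 9.62 and 10.02 in HFGSC, against 5.16 and 4.95 in HF. Kitl, the ligand of Kit, was 8.99-fold lower at 5.90 and 5.31 in HFGSC, against 9.87 and 7.68 in HF, opposite to its receptor. The IL-6 receptor chains Il6ra and Il6st were lower, at 7.62 and 7.72 in HFGSC, against 10.44 and 10.22 in HF, and 7.83 and 7.23 in HFGSC, against 9.98 and 9.79 in HF. Epha1, an ephrin receptor, read 9.65 and 9.46 in HFGSC, against 5.13 and 5.29 in HF, and the collagen receptors Ddr1 and Ddr2 went opposite ways, Ddr1 at 13.21 and 12.83 in HFGSC, against 10.67 and 10.55 in HF, and Ddr2 at 5.35 and 5.77 in HFGSC, against 7.96 and 7.77 in HF. Kitl did not pass without HFGSC array 2 (adjusted p = 0.0518). Il6ra and Il6st did not pass without HF array 1 or HF array 2 (adjusted p = 0.0546 to 0.0755).

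In the Wnt pathway 11 genes were higher and 3 lower of 26, at a median of 1.08, while 9 or 7 were higher without HFGSC array 1 or 2 and 5 or 7 without HF array 1 or 2, and 1 or 4 were lower without HFGSC array 1 or 2 and 1 without either HF array. The receptors Fzd10 and Fzd3 read 12.55 and 11.46 in HFGSC, against 5.41 and 5.05 in HF, and 10.75 and 10.18 in HFGSC, against 5.26 and 5.41 in HF, while Fzd6 was lower. Axin2, a feedback target of the pathway, read 8.53 and 9.19 in HFGSC, against 5.13 and 5.17 in HF, at least 5.32-fold higher. Wnt7b, a ligand made in epidermis, read 4.92 and 5.28 in HFGSC, against 7.91 and 8.32 in HF, at least 4.55-fold lower, and Wls, the carrier that secretes Wnts, was 4.34-fold lower. In TGF-beta and BMP genes the shares were near background, 6 higher and 3 lower of 32, and 2 or 6 were lower without HFGSC array 1 or 2 and 2 or 3 without HF array 1 or 2. Bmp7 read 10.13 and 10.43 in HFGSC, against 5.14 and 4.91 in HF, Acvr2b, an activin receptor, 13.43 and 12.48 in HFGSC, against 9.19 and 9.36 in HF, and Id4, a marker of spermatogonial stem cells, 9.60 and 9.27 in HFGSC, against 5.31 and 5.18 in HF. Endoglin (Eng), a TGF-beta coreceptor of endothelium and mesenchyme, read 5.6 and 7.46 in HFGSC, against 11.97 and 12.01 in HF, 44-fold lower, and Id2, an inhibitor of helix-loop-helix factors, was 9.3-fold lower. Notch and Hedgehog genes had 5 higher and 1 lower of 18, where 3 were higher without either HFGSC array and 2 or 3 without HF array 1 or 2, and 0 or 2 were lower without HFGSC array 1 or 2 and 1 without either HF array. They were led by Hey1, a target of the pathway, at 11.18 and 9.72 in HFGSC, against 5.28 and 5.47 in HF, and Notch3, at 8.40 and 10.81 in HFGSC, against 5.38 and 5.56 in HF. Wls and Fzd6 did not pass without HFGSC array 1, HF array 1 or HF array 2 (adjusted p = 0.0556 to 0.145). Id2 did not pass without HFGSC array 1 or HF array 1 (adjusted p = 0.0534 to 0.06).

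Mitosis genes were lower or did not pass. Of 25 tested, 0 were higher (0 at an unadjusted p under 0.05) and 5 lower, at a median of -1.38, and 5 were lower without either HFGSC array and 2 or 1 without HF array 1 or 2. Plk1 and Aurka, mitotic kinases, read 11.73 and 12.01 in HFGSC, against 13.74 and 13.63 in HF, and 11.10 and 11.16 in HFGSC, against 12.57 and 12.73 in HF, and Foxm1, the transcription factor of mitotic genes, 8.69 and 9.41 in HFGSC, against 11.22 and 11.40 in HF. Replication genes showed 3 higher and 3 lower of 38, though 1 or 2 were higher without HFGSC array 1 or 2 and 0 or 2 without HF array 1 or 2, with Rrm2, the ribonucleotide reductase subunit, at 7.73 and 8.99 in HFGSC, against 11.65 and 11.67 in HF. Cell cycle inhibitors and p53 targets had 5 higher and 2 lower of 24, while 4 or 3 were higher without HFGSC array 1 or 2 and 3 or 2 without HF array 1 or 2, and 0 or 4 were lower without HFGSC array 1 or 2 and 0 without either HF array. They included Cdkn2b at 11.16 and 11.97 in HFGSC, against 5 and 4.98 in HF, beside Cdkn1c. Histone genes had 0 higher (0 at an unadjusted p under 0.05) and 4 lower of 23, though 3 or 2 were lower without HFGSC array 1 or 2 and 1 or 2 without HF array 1 or 2, and the variant H2az1 read 12.66 and 12.69 in HFGSC, against 14.23 and 14.21 in HF. DNA repair was near or under background, with Parp1 at 14.76 and 14.33 in HFGSC, against 12.51 and 12.42 in HF, and Ung, which removes uracil, at 13.55 and 13.48 in HFGSC, against 10.98 and 11.26 in HF. Aurka did not pass without HF array 1 or HF array 2 (adjusted p = 0.0559 to 0.0794). Foxm1 did not pass without HFGSC array 1, HF array 1 or HF array 2 (adjusted p = 0.0534 to 0.0988).

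Metabolic genes differed in both directions. Slc2a3, a high-affinity glucose transporter, read 13.27 and 13.65 in HFGSC, against 5.54 and 6.38 in HF, at least 129-fold higher, Aldoc, the brain isoform of aldolase, 11.92 and 12.21 in HFGSC, against 6 and 5.83 in HF, and Tktl1, a transketolase relative, 11.96 and 9.86 in HFGSC, against 4.94 and 5.01 in HF. Hk1 and Pfkp, a hexokinase and a phosphofructokinase, were 3.75-fold and 2.37-fold lower. In the glycolysis list 3 were higher and 5 lower of 26, while 5 or 3 were higher without HFGSC array 1 or 2 and 3 without either HF array, and 2 or 10 were lower without HFGSC array 1 or 2 and 1 without either HF array. Amino acid and one-carbon genes were lower in 12 of 25 and higher in 2, at a median of -1.16, while 8 or 10 were lower without HFGSC array 1 or 2 and 7 or 3 without HF array 1 or 2, and 1 or 2 were higher without HFGSC array 1 or 2 and 1 without either HF array. Apart from Fah these were led by Slc7a11, the cystine transporter, at 5.73 and 5.47 in HFGSC, against 8.35 and 9.59 in HF, Shmt2, the mitochondrial serine enzyme, at 9.63 and 9.73 in HFGSC, against 11.84 and 12.45 in HF, and Srm, spermidine synthase, at 11.02 and 11.89 in HFGSC, against 13.41 and 13.76 in HF. Ppargc1b, a coactivator of mitochondrial genes, read 5.40 and 6.70 in HFGSC, against 9.39 and 10.03 in HF, 12.6-fold lower, and its relative Ppargc1a 6.88 and 6.52 in HFGSC, against 5.28 and 5.31 in HF, at least 1.19-fold higher. Hk1 did not pass without HFGSC array 1, HF array 1 or HF array 2, under median scaling or without the detection filter (adjusted p = 0.0508 to 0.179). Pfkp did not pass without HFGSC array 1, HFGSC array 2, HF array 1 or HF array 2 or without the detection filter (adjusted p = 0.0559 to 0.19). Shmt2 and Srm did not pass without HF array 2 (adjusted p = 0.0568 to 0.0587). Ppargc1a did not pass without HFGSC array 1, HF array 1 or HF array 2 (adjusted p = 0.0687 to 0.0786).

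Redox and detoxification genes were higher in 13 and lower in 3 of 41, while 13 or 9 were higher without HFGSC array 1 or 2 and 8 or 9 without HF array 1 or 2, and 1 or 10 were lower without HFGSC array 1 or 2 and 1 without either HF array. The glutathione transferases Gstt3 and Gsta4 read 11.28 and 11.41 in HFGSC, against 4.99 and 4.88 in HF, and 11.14 and 11.36 in HFGSC, against 5.56 and 6.13 in HF, and Cbr3, a carbonyl reductase, 9.91 and 10.93 in HFGSC, against 5.67 and 5.91 in HF. Txnip, an inhibitor of thioredoxin, was bright in both and read 14.62 and 13.83 in HFGSC, against 12.04 and 11.37 in HF, 5.73-fold higher. Lists of the lipid, respiratory, unfolded protein, heat shock, hypoxia, iron, lysosome and proteasome genes had between 1 and 4 higher and between 1 and 5 lower members each, and 0 to 4 higher and 0 to 7 lower in fits that left out an array. With all arrays their tested members numbered 21 to 35, and in every list the share of higher members was under 17.2%, while the share of lower members was above 9.37% in all but the proteasome list. Among these Hspb1, a small heat shock protein, read 7.46 and 7.28 in HFGSC, against 10.06 and 11.73 in HF, 11.5-fold lower, and Psmb9, an immunoproteasome subunit, 9.71 and 11.31 in HFGSC, against 6.04 and 5.69 in HF, at least 16.7-fold higher. Cytosolic ribosomal proteins had a median of 0.06, with 2 higher and 3 lower of 33, while 0 or 2 were higher without HFGSC array 1 or 2 and 0 without either HF array, and 3 were lower without either HFGSC array and 1 or 2 without HF array 1 or 2. Rpl39l, the testis paralog of Rpl39, read 6.83 and 6.36 in HFGSC, against 5.09 and 5.04 in HF, and Rps4x, an X-linked ribosomal protein, 13.56 and 13.54 in HFGSC, against 15.33 and 14.97 in HF. Hspb1 did not pass without HF array 2 (adjusted p = 0.0606). Rpl39l did not pass without HFGSC array 1, HF array 1 or HF array 2 or without the trend (adjusted p = 0.0508 to 0.109). Rps4x did not pass without HF array 1 (adjusted p = 0.0506).

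Genes of cell death differed in both directions, 7 higher and 7 lower of 29, while 3 or 5 were higher without HFGSC array 1 or 2 and 5 or 3 without HF array 1 or 2, and 2 or 7 were lower without HFGSC array 1 or 2 and 2 or 1 without HF array 1 or 2. Mlkl, Casp8, the initiator caspase of death receptors, at 6.81 and 8.18 in HFGSC, against 10.35 and 10.17 in HF, and Bak1, a pore former, at 5.79 and 7.83 in HFGSC, against 9.78 and 10.22 in HF, were lower. Bik, a BH3-only activator, was higher at 11.95 and 11.24 in HFGSC, against 5.46 and 6.37 in HF, and so was the death receptor Fas, at 8.35 and 9.53 in HFGSC, against 5.96 and 5.82 in HF. Casp9, the initiator caspase of the mitochondrial pathway, read 12.79 and 12.72 in HFGSC, against 5.88 and 6.02 in HF, at least 79.3-fold higher, but this was 1 of 3 tested probes, and the other 2 did not pass at differences of -0.01 and -1.36. Casp8 did not pass without HFGSC array 1, HF array 1 or HF array 2 (adjusted p = 0.0672 to 0.0844). Bak1 did not pass without HFGSC array 1 or HF array 2 (adjusted p = 0.0633 to 0.0755). Fas did not pass without HF array 2 (adjusted p = 0.0594).

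Interferon and antigen presentation genes had 4 higher and 3 lower of 31, near background. Irf1, an interferon-induced factor, read 13.40 and 13.17 in HFGSC, against 11.15 and 11.48 in HF, and Oasl2, an antiviral protein, 12.19 and 11.13 in HFGSC, against 7.14 and 7.66 in HF, both higher, while the class I gene H2-D1 read 10.41 and 10.54 in HFGSC, against 12.90 and 13.67 in HF, 7.02-fold lower. Another class I gene, H2-K1, read 9.32 and 12.93 in HFGSC, against 7.37 and 8.03 in HF, with the HFGSC arrays far apart, and did not pass (adjusted p = 0.0574, named after its values were seen). In this list 7 or 4 were higher without HFGSC array 1 or 2 and 4 or 5 without HF array 1 or 2, and 2 or 10 were lower without HFGSC array 1 or 2 and 2 or 3 without HF array 1 or 2. H2-D1 did not pass with the mean of all probes (adjusted p = 0.469).

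That gap between the HFGSC arrays ran through whole lists. Germ cell core genes averaged 11.23 on HFGSC array 1 and 10.24 on array 2, against 5.55 and 5.73 on the HF arrays, and all 21 were higher on array 1. Collagen processing genes ran the other way, with 0 of 18 higher on array 1 and means of 9.39 and 10.81, against 10.59 and 10.95 in HF. Inflammatory genes averaged 8.30 and 9.95, against 8.93 and 9.36, and interferon genes 9.22 and 10.48, against 9.03 and 9.88. For fibroblast genes the median of array 1 minus array 2 was -1.69, against -0.07 between the HF arrays and -0.05 over all tested genes in HFGSC. Serpina3n, an inhibitor of proteases made in inflammation, had the largest gap of the detected genes, at 6.21 and 11.61 in HFGSC, against 5.14 and 5.17 in HF, and did not pass. On the 16 lists of the plot of gene list levels, the HF arrays lay within 0.85 of each other. Over all tested genes the difference between array 1 and array 2 in HFGSC correlated with that in HF at 0.436. With that in GSC it correlated at 0.58, so the gap was in part shared by same-numbered arrays of other groups. The part of other cells in these gaps was not tested.

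**Figure D4:**
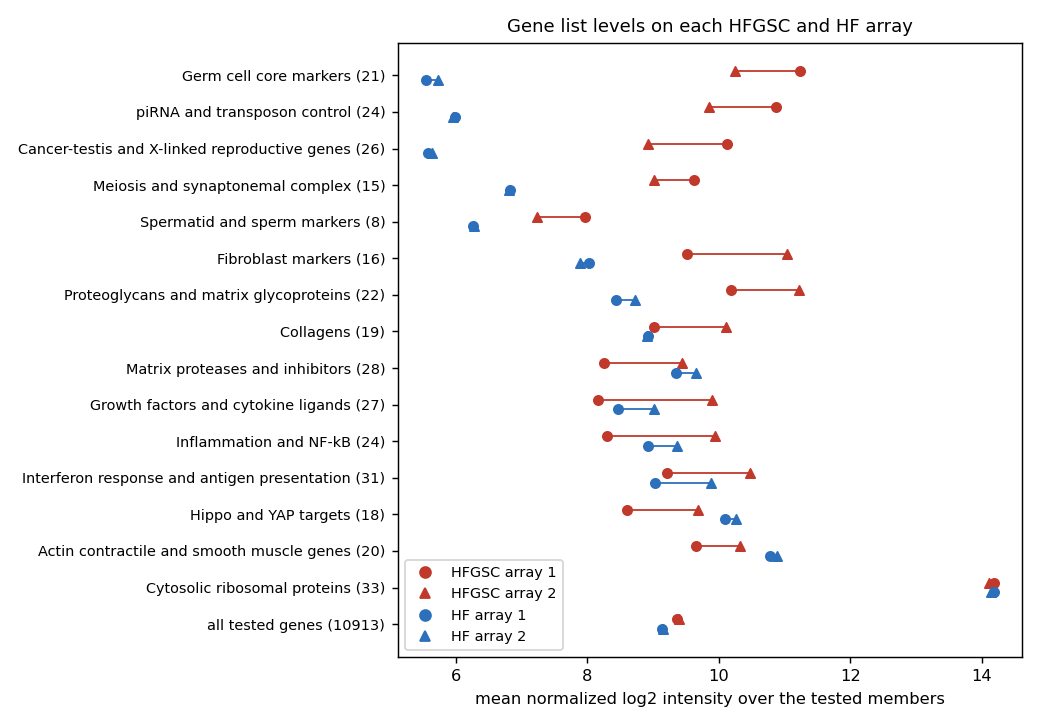
Mean normalized log2 intensity of the tested members of 16 gene sets on each HFGSC array (red) and HF array (blue), circles for array 1 and triangles for array 2. Germ cell sets are brighter on HFGSC array 1 and matrix, ligand and inflammatory sets on HFGSC array 2, while ribosomal proteins and all tested genes coincide.

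Surface markers of spermatogonia and stem cells had 5 higher and 5 lower of 17, and 4 or 5 were lower without HFGSC array 1 or 2 and 3 without either HF array. Tspan8, a tetraspanin of the cell surface, read 10.05 and 9.59 in HFGSC, against 5.24 and 5.06 in HF, at least 10.4-fold higher. Lgr6, a receptor of R-spondins that marks skin stem cells, read 5.80 and 5.96 in HFGSC, against 8.83 and 9.94 in HF, at least 11-fold lower, and Cd44, the hyaluronan receptor, 9.18 and 10.97 in HFGSC, against 12.77 and 12.94 in HF, 6.86-fold lower. Of 31 genes of translation and RNA binding 7 were higher and 2 lower, and 2 or 3 were lower without HFGSC array 1 or 2 and 1 or 0 without HF array 1 or 2. Those that were higher are led by RNA-binding proteins of germ cells and embryos, with Rbmxl2, a testis paralog of an X-linked splicing factor, at 12.50 and 12.03 in HFGSC, against 4.83 and 4.91 in HF, Igf2bp3, which binds Igf2 messages, at 12.16 and 11.02 in HFGSC, against 4.94 and 4.81 in HF, and Elavl2 at 11.86 and 10.29 in HFGSC, against 5.14 and 4.96 in HF. Eif4ebp1, an inhibitor of translation initiation, read 12.90 and 13.26 in HFGSC, against 14.24 and 14.62 in HF, 2.55-fold lower. Cd44 did not pass without HF array 1 or HF array 2 (adjusted p = 0.0582 to 0.0713). Eif4ebp1 did not pass without HF array 2 (adjusted p = 0.0848).

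In the inflammation list 3 were higher and 5 lower of 24, and 3 or 7 were lower without HFGSC array 1 or 2 and 3 or 2 without HF array 1 or 2. Beside Cxcl1, Icam1, an adhesion molecule for leukocytes, read 10.29 and 10.73 in HFGSC, against 6.20 and 6.41 in HF, at least 16.7-fold higher, while the chemokine Ccl5 read 5.22 and 7.90 in HFGSC, against 9.88 and 10.43 in HF, 12.1-fold lower, and Tlr4, the receptor for bacterial lipopolysaccharide, 6.59 and 7.86 in HFGSC, against 10.54 and 9.91 in HF, 8-fold lower. Hox and Tfap2 genes, which carry positional identity, were higher in 8 and lower in 1 of 20, while 7 were higher without either HFGSC array and 4 or 3 without HF array 1 or 2, and 1 or 2 were lower without HFGSC array 1 or 2 and 1 without either HF array. Hoxc6 read 8.28 and 11.17 in HFGSC, against 4.90 and 4.96 in HF, at least 9.67-fold higher, and Hoxc9 7.21 and 8.34 in HFGSC, against 4.89 and 4.88 in HF, at least 2.51-fold higher, with the HFGSC arrays unequal in both. The exception was Tfap2b, at background in HFGSC. Ccl5 did not pass without HF array 2 (adjusted p = 0.0625). Tlr4 did not pass without HF array 1 (adjusted p = 0.0694).

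Set against the testis GSC arrays, HFGSC differed in 48 genes (0.44%), 19 higher and 29 lower, and 15 of the 48 also passed against HF. Both comparisons use the HFGSC arrays. With 2 arrays in each group, a gene that did not pass cannot be called equal. Arhgef5 differed from GSC by -2.86 log2 units and Cldn6 by 1.96, and neither passed (limma adjusted p = 0.105 and 0.126). The count against GSC was not repeated under the alternatives. By limma's adjusted p, between 0.0211 and 0.0376 for the 4 examples against GSC, genes higher than in both included Tmprss2, a membrane serine protease, at 9.78 and 9.72 in HFGSC, against 4.80 and 4.85 in HF and 6.31 and 7 in GSC, and Bcl11b, a zinc finger repressor, at 9.09 and 8.29 in HFGSC, against 5.06 and 4.91 in HF and 5.41 and 5.42 in GSC. Cldn11, a claudin of Sertoli cells and myelin, read 7.63 and 8.58 in HFGSC, against 4.93 and 4.86 in HF and 5.32 and 5.54 in GSC. Of 13 Sertoli cell genes on the array 6 and 7 were detected in HFGSC, 3 and 3 in HF and 5 and 5 in GSC. Amh, Gata4, Gata1, Dhh, Fshr and Nr5a1 of that list were detected on none of the HFGSC and HF arrays. Hlx, a mesenchymal homeobox gene, read 9.98 and 10.16 in HFGSC, against 7.49 and 8.61 in HF and 5.50 and 6.06 in GSC, a level nearer HF than GSC. Col18a1 was lower than both, at 11.82 and 12.07 in GSC, and Csrp1, a LIM protein of contractile cells, lay between, at 8.73 and 9.01 in HFGSC, against 11.95 and 11.84 in HF and 5.01 and 5.11 in GSC. Hlx did not pass without HFGSC array 1, HFGSC array 2, HF array 1 or HF array 2, without the detection filter or in a fit of the 4 arrays alone (adjusted p = 0.055 to 0.264).

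The position of the genes gave a pattern that no list held. On chromosome 5, 203 of 741 tested genes were higher in HFGSC (27.4%) and 33 lower (4.45%), against 17% and 9.29% on the autosomes together. Among the 550 genes of chromosome 5 detected on all 4 arrays the median HFGSC minus HF difference was 0.32, and the 4 pairs of arrays gave 0.25 to 0.42, whereas the other autosomes had medians of -0.40 to 0.05. Against GSC the median of the same genes was 0.34, with pairs from 0.21 to 0.48, and on the other autosomes it ran between -0.25 and 0.12. Both differences use the HFGSC arrays. The GSC minus HF median on chromosome 5 was 0, against -0.14 over genes of the other autosomes, a shift of 0.14. Single other autosomes ran from -0.33 to 0.05. In 5 blocks of 110 neighbouring genes along the chromosome the HFGSC minus GSC median was 0.28 to 0.38, and the HFGSC minus HF median was 0.32 to 0.52 in 4 blocks and -0.06 in the second. After centring each gene over the 6 arrays, the 541 genes detected on all of them stood 0.32 and 0.263 above the other autosomes on the HFGSC arrays, against -0.255 and -0.20 for HF and -0.106 and -0.048 for GSC. The difference between the HFGSC arrays and the other 4 had a two-sided exact permutation p of 0.133, the smallest that 15 arrangements allow. Chromosome 5 was picked from 20 chromosomes after their values were seen, and the cause was not tested.

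**Figure D5:**
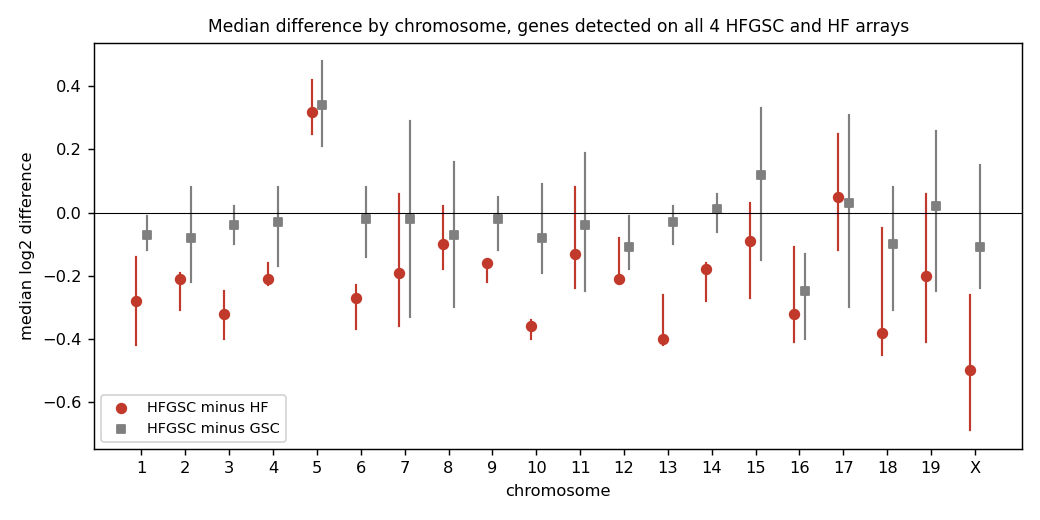
Median log2 difference over genes detected on all 4 HFGSC and HF arrays, by chromosome, for HFGSC minus HF (red circles) and HFGSC minus GSC (grey squares), with lines spanning the 4 pairs of arrays. Chromosome 5 stands at 0.32 and 0.34, above every other chromosome in both.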

How the data were processed

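Total RNA of 2 HFGSC, 2 HF and 2 GSC samples was labelled with biotin and hybridised to Illumina mouse bead arrays, per the labels' protocols. The authors deposited, per the file headers, a summary intensity for each of 45281 probes on each array, not normalized, with a detection p-value beside it. The deposited log2 values of the same arrays share their quantiles over all columns (median 7.05 on each), carry no statement of scale or centring, and served as an alternative. GenomeStudio 2011.1 and R 3.0.2 are named, without a role, per the submitters' processing notes. Whether background was subtracted in the deposited intensities is not given in the sources used here. No value column was left unused.

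Intensities were background-corrected with the detection p-values and quantile normalized by neqc of limma 3.58.1 in R 4.3.3, with an offset of 16. Platform annotation gave 34885 probes 1 gene symbol, 18 several and 10378 none, and 34807 were matched by Entrez identifier. A probe was kept if the 2 arrays of some group both gave it a detection p-value under 0.05, and the brightest probe kept stood for its gene, which left 10913 genes. Groups came from the sample titles. All 6 arrays entered the fit (lmFit, eBayes with a mean-variance trend), which gave them 3 residual degrees of freedom, with two-sided p-values adjusted by the Benjamini-Hochberg method over all tested genes and a threshold of 0.05. On simulated data with 200 genes changed among 10913, 37 of 100 genes changed by 2 log2 units and 87 of 100 changed by 3 were recovered, with 1 false call. The simulation drew independent noise at the fitted spread. In the data 2896 genes passed, and differences between array 1 and array 2 correlated between groups at 0.436 to 0.757. The simulated rates may therefore not hold for these data. Genes with 2 or more tested probes numbered 4085, and 6 of them had probes that passed in opposite directions (Actb, Azi2, Bex2, Dst, Ppp2r5d and Tsc22d3).

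Named genes were, among those that passed with groups that did not overlap, the 12 largest differences in each direction among genes detected on all 4 arrays, the 12 largest bounds in each direction among genes detected in 1 group, and, from each of 66 gene lists, the genes of smallest adjusted p, at most 4 in a direction. Unnamed loci were left out. Values had been seen when further genes were added, namely Bcl11b, Ccn1, Eif2s3y, Fos, Gfra1, H2-K1, Hlx, Jun, Junb, Pou5f1, Serpina3n and Tmprss2. The members and lists were chosen with earlier results of these data known. Alternatives covered background correction, normalization, the deposited log2 values, the detection filter, the probe rule, the trend, the arrays in the fit, the replicate number as a block and each array left out.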

Additional observations from a re-analysis of the deposited data

How the results depend on the processing

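Under 8 alternatives that kept all HFGSC and HF arrays and added no block, 1587 to 1848 genes were higher in HFGSC and 823 to 1047 lower, against 1873 and 1023. Leaving out 1 array gave 993 to 1676 higher and 439 to 1153 lower genes. The labels tie same-numbered arrays to nothing, so their numbers were not taken as a pairing, and whether they share a batch was not tested. The replicate block gave 2876 higher and 2246 lower genes, and all of the 1873 and 1023 were among them. Deviations of same-numbered arrays correlated across genes at 0.436 for HFGSC and HF, 0.58 for HFGSC and GSC and 0.757 for HF and GSC. The higher share of calls was 64.7%, and 56.1% with the block, 73.8% without HFGSC array 1 and 59.2% without HFGSC array 2. Of 342 genes that passed and met the naming rule, 29 no longer passed under median scaling, 71 without HFGSC array 1, 36 without HFGSC array 2, 105 without HF array 1 and 109 without HF array 2. The direction turned in 1 of them: Casp9 was at -0.91 without HFGSC array 1, where another probe stood for the gene, and at 6.70 to 6.84 with any other array left out. Genes detected in HFGSC alone numbered 1385 at a detection p-value under 0.01, and those in HF alone 212. The chromosome 5 median relative to the other autosomes was 0.525 for HFGSC minus HF and 0.476 to 0.567 under alternatives chosen after seeing the data.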
